A study of Saccharomyces cerevisiae with 2 samples.

Results

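The genes described here encode the enzymes that carry glucose to ethanol, acetate and the pentose phosphates in *Saccharomyces cerevisiae*, and 2 enzymes of the reverse route. The rule that lists them uses ORF names and no measured value, though it was written with earlier results of these data known. It takes 35 of the 6207 ORFs in the deposited table, from the hexokinases to the pyruvate kinases, the pyruvate decarboxylases, the alcohol dehydrogenases, enzymes that make acetate and acetyl-CoA, FBP1 and PCK1 of gluconeogenesis, and 4 enzymes of the pentose phosphate pathway. Both RNAs of each comparison came from strain BY4741 carrying a wsc1 mutation, a change in a plasma membrane sensor of cell wall stress that both arms share. The treated arm had received 15 ng/ml caspofungin, which blocks β-1,3-glucan synthase, for 2 h, and the untreated arm was the other part of the same culture, both in the glucose medium YEPD at 24 °C. The 2-colour microarrays gave 2 columns of log2 ratios: in replicate 1 the caspofungin RNA carried Cy3 and the untreated RNA Cy5, and in replicate 2 the caspofungin RNA carried Cy5 and the untreated RNA Cy3.

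The deposited columns ran against each other across the array, so they were assumed, without support from the labels, to have the same dye on top, and the sign of replicate 1 was turned before averaging. The labels do not say which dye stands on top of the ratio. Should the ratio be Cy5 over Cy3, a positive turned value stands for a higher RNA level in caspofungin-treated cells. Should it be Cy3 over Cy5, the same value stands for a lower level, and all values are therefore given by side. The labels mention more than 1 culture, but not whether the 2 columns, which differ in dye orientation, also come from different cultures, so the p-values measure a spread that may be technical.

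Yeast growing on glucose breaks it down through glycolysis and reduces most of the resulting pyruvate to ethanol, even with oxygen present. Many glycolytic genes, driven by the transcription factors Rap1 and Gcr1, are among the most strongly expressed genes of the cell, and several steps are encoded by isozymes of which 1 dominates on glucose. Genes for gluconeogenesis and for the use of ethanol and acetate are repressed by glucose. The pentose phosphate pathway branches off after hexose phosphorylation and supplies NADPH and ribose.

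Most of these genes had a mean near 0. Of the 35 genes, 29 (82.9%) had a value in both columns, against 50.2% of all ORFs. ADH4 had a value in 1 column, and 5 genes (14.3%) were blank in both, against 39.5% of all ORFs. Of the 29, 24 (82.8%) had a mean within 0.2 of 0 on the log2 scale, where 61.8% of all ORFs did. The median of the 29 means was -0.04, and that of all 3117 ORFs measured in both columns was 0.01. In size, without sign, the median was 0.10 for the 29 genes and 0.15 for all ORFs. A mean near 0 can also come from replicates on opposite sides. The median SD between the replicates was 0.15 for the 29 genes and 0.13 for all ORFs. Across genes, the SD in replicate 1 was 0.35 for the 29 and 0.37 for all ORFs. In replicate 2 it was 0.21 and 0.32. The glyceraldehyde-3-phosphate dehydrogenase gene TDH1 stood apart from the rest, with the greatest mean of the 29 on the negative side.

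No gene of the group passed the test with replicate 1 turned and the columns not centred. In limma, fitted over the 3117 ORFs and tested against 0, 0 of the 29 had an adjusted p under 0.05, as did 0.0% of all ORFs. At an unadjusted p of 0.05, 1 of the 29 (3.45%) was past the threshold, TDH1, against 13.4% of all ORFs. A mean over 1.5-fold in size, on one side in both columns, was also found in 1 of the 29 (3.45%), again TDH1, against 4.04% of all ORFs. The adjusted p of the 29 ran from 0.366 to 0.984. The 95% interval of the mean held 0 for 28 of the 29, all but TDH1. The interval lay within a 2-fold change to either side for 27 of the 29, the exceptions being TDH1 and PFK2.

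How far the replicates went together is given by counts, which were not tested against each other. After turning, 13 of the 29 (44.8%) were on the same side in both columns, against 64.1% of all ORFs. Of these, 8 (27.6%) were negative in both, against 32.4% of all ORFs, and 5 (17.2%) were positive in both, against 31.6%. With the signs as deposited, the complement of these counts, 16 of the 29 (55.2%) were on the same side, against 35.9% of all ORFs. The turning was chosen because the columns ran against each other across the array, so the 64.1% follows from that choice. The part of dye effects in these signs was not tested. Across the 29 genes, which are not independent replicates, Pearson's r between the turned columns was 0.18 and Spearman's rho was -0.037, where all ORFs gave 0.29 and 0.33. Without TDH1 the 28 others had an r of -0.20 and a rho of -0.15, so the positive r rested on that gene. The plot of replicate 2 against replicate 1 shows this.

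**Figure D1:**
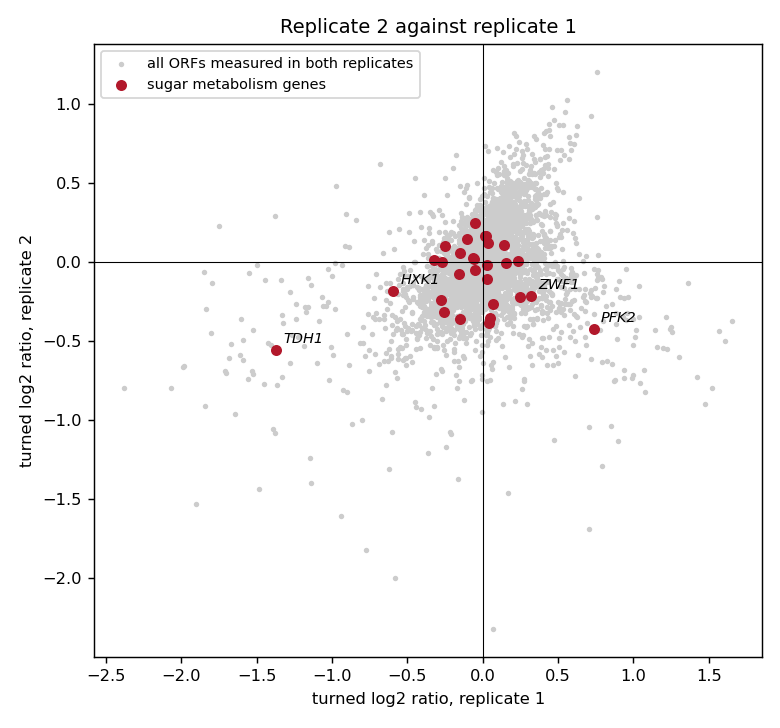
Turned log2 ratio in replicate 2 (vertical axis) against that in replicate 1 (horizontal axis), with each of the 3117 ORFs measured in both replicates in grey and the 29 sugar metabolism genes in red. Of the 29 red points, 16 have turned ratios of opposite sign in the replicates. TDH1 lies at -1.37 in replicate 1 and -0.56 in replicate 2, and PFK2 lies at 0.74 in replicate 1 and -0.43 in replicate 2.

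The first step, the phosphorylation of glucose, is carried out by 3 enzymes, all measured. HXK1 (YFR053C), a hexokinase gene that is repressed by glucose, had turned log2 ratios of -0.59 in replicate 1 and -0.18 in replicate 2. Both were on the negative side, with a mean of -0.39 ± 0.29 (SD, n = 2; 1.31-fold, adjusted p = 0.385). HXK1 was the second of the 29 by size, at place 212 of 3117 from the negative end. HXK2 (YGL253W), the main hexokinase on glucose and a part of glucose repression, had -0.050 and 0.25, on opposite sides (mean 0.10 ± 0.21, adjusted p = 0.730). GLK1 (YCL040W), the glucokinase gene, had 0.23 and 0.0069, with a mean of 0.12 ± 0.16 (adjusted p = 0.652).

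The upper part of glycolysis, from glucose 6-phosphate to the triose phosphates, was measured for all 5 genes, with a median of 0.022 and means between -0.12 and 0.16. TPI1 (YDR050C), triose phosphate isomerase, was positive in both replicates, at 0.14 and 0.11 (mean 0.13 ± 0.026, adjusted p = 0.585). FBA1 (YKL060C), the aldolase that splits fructose 1,6-bisphosphate, was negative in both, at -0.16 and -0.075 (mean -0.12 ± 0.060, adjusted p = 0.618). These 2 genes kept one side but lay within 0.2 of 0. The other 3 changed side between the replicates. PFK2 (YMR205C), the β subunit of phosphofructokinase, had the greatest disagreement of the 29, 0.74 in replicate 1 and -0.43 in replicate 2. Its deposited values were -0.74 and -0.43, and its mean after turning was 0.16 ± 0.82 (adjusted p = 0.839). PFK1 (YGR240C), the α subunit of the same enzyme, had -0.10 and 0.15 (mean 0.022 ± 0.18), the opposite order of sides to PFK2. PGI1 (YBR196C), phosphoglucose isomerase, had 0.25 and -0.22 (mean 0.011 ± 0.33).

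In the lower part of glycolysis, which yields ATP and pyruvate, 8 of 9 genes were measured, 6 with a negative and 2 with a positive mean, and a median of -0.10. TDH1 (YJL052W) encodes a minor isozyme of glyceraldehyde-3-phosphate dehydrogenase that is known to be expressed as cells enter stationary phase. Its turned ratios were -1.37 in replicate 1 and -0.56 in replicate 2, both negative. The mean was -0.96 ± 0.58 (SD, n = 2), a size of 1.95-fold, with a 95% interval of -1.65 to -0.28. TDH1 stood at place 36 of 3117 from the negative end, and at place 37 by size. It missed the threshold with replicate 1 turned and columns not centred (limma, adjusted p = 0.366, the fit's lowest, shared by other ORFs). With each column first centred on its median over all its ORFs it passed (mean -0.98, adjusted p = 0.044), in a fit that called 43 of the 3117 ORFs (1.38%). It also passed when the median was taken over the ORFs measured in both columns (mean -0.96, adjusted p = 0.0055), a setting chosen after seeing the data, which called 115 ORFs (3.69%). In replicate 1, TIM54, which lies 2 places from TDH1 in the order of ORF names, also had a deposited ratio beyond 1, at 1.08 (-0.37 in replicate 2). Of all ORFs measured in replicate 1, 9.26% had such a value within 3 places, and its part in the result was not tested.

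TDH3 (YGR192C) and TDH2 (YJR009C), the isozymes that dominate on glucose, had ratios much nearer to 0 than TDH1. TDH3 had -0.15 and 0.058 (mean -0.045 ± 0.15, adjusted p = 0.873). TDH2 had -0.32 and 0.013 (mean -0.16 ± 0.24, adjusted p = 0.612), and a neighbour 1 place away, SPC1, had a deposited ratio of -1.42 in replicate 1. Both genes changed side between the replicates.

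The next enzymes of the pathway lay to both sides. PGK1 (YCR012W), phosphoglycerate kinase, was positive in both replicates, at 0.013 and 0.17 (mean 0.090 ± 0.11, adjusted p = 0.717). CDC19 (YAL038W), the main pyruvate kinase, was positive as well, at 0.035 and 0.12 (mean 0.079 ± 0.061, adjusted p = 0.736). GPM1 (YKL152C), phosphoglycerate mutase, was negative in both at nearly the same size, -0.26 and -0.32 (mean -0.29 ± 0.043, 1.22-fold, adjusted p = 0.377). Its 95% interval ran from -0.58 to 0.0067. ENO2 (YHR174W), the enolase of growth on glucose, was negative in both, at -0.15 and -0.36 (mean -0.25 ± 0.15, adjusted p = 0.402). ENO1 (YGR254W), the other enolase, had 0.027 and -0.11 (mean -0.040 ± 0.094, adjusted p = 0.881). PYK2 (YOR347C), a minor pyruvate kinase that is repressed by glucose, was blank in both.

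**Figure D2:**
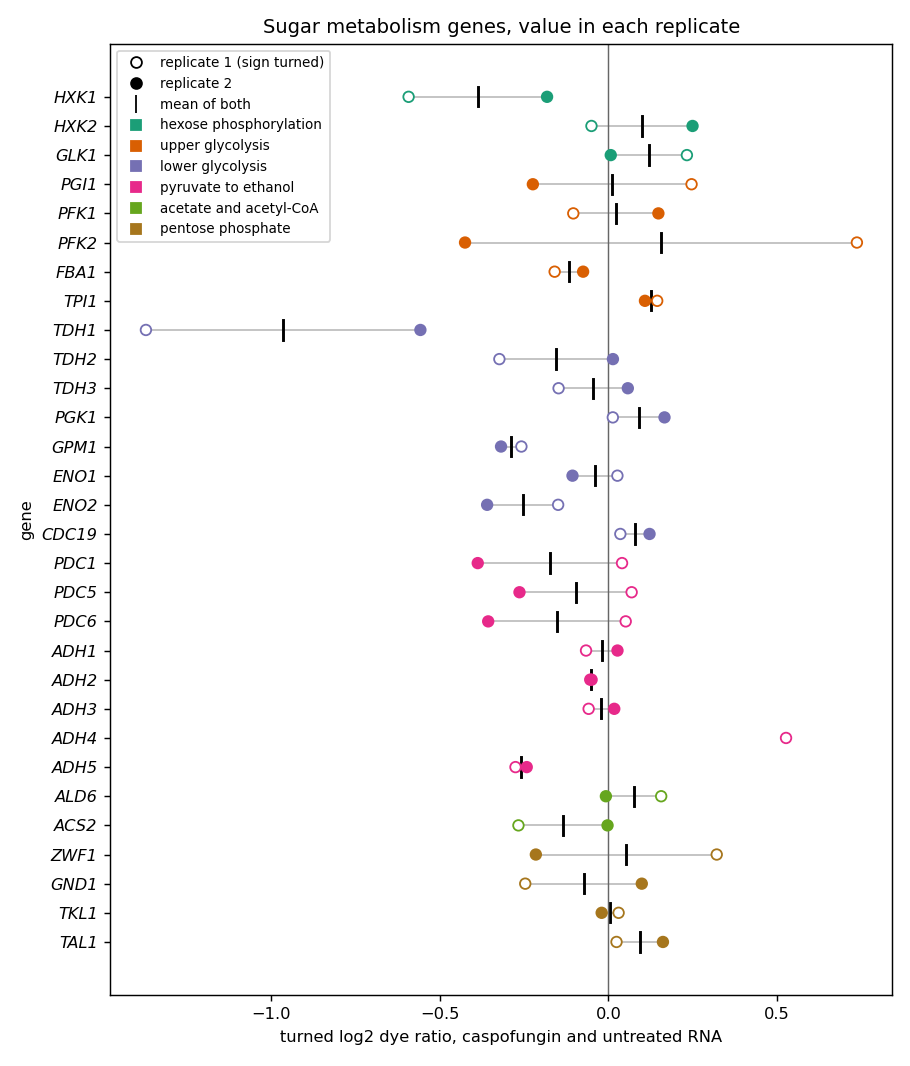
Turned log2 dye ratio (horizontal axis) of the 30 sugar metabolism genes with at least 1 value, in pathway order from top to bottom and coloured by role, with replicate 1 as an open circle, replicate 2 as a filled circle and the mean of both as a bar. TDH1 is farthest from 0 with both points negative, PFK2 has the widest gap between its points, and the means of 24 genes lie within 0.2 of 0.

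For the conversion of pyruvate to ethanol, 7 of 8 genes were measured in both columns. All 7 means were negative, with a median of -0.097 (all ORFs 0.01) and a range of -0.26 to -0.020. Of the 7, 2 were negative in both replicates and 5 changed side. PDC1 (YLR044C), the main pyruvate decarboxylase, had 0.040 and -0.39 (mean -0.17 ± 0.30, adjusted p = 0.614). PDC5 (YLR134W), the isozyme that takes over when PDC1 is lost, had 0.069 and -0.26 (mean -0.097 ± 0.24, adjusted p = 0.749). PDC6 (YGR087C), a minor isozyme known from sulfur limitation, had 0.051 and -0.36 (mean -0.15 ± 0.29, adjusted p = 0.649). The 3 decarboxylase genes thus had the same pattern, slightly positive in replicate 1 and more strongly negative in replicate 2, and their deposited values were negative in both columns. The isozymes are close in sequence and no source used here gives the probe design, so signal shared between them cannot be told apart from a shared ratio.

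Among the alcohol dehydrogenases, ADH5 (YBR145W), a minor isozyme, was negative in both replicates at nearly the same size, -0.28 and -0.24 (mean -0.26 ± 0.024, adjusted p = 0.388). ADH1 (YOL086C), the enzyme that reduces acetaldehyde to ethanol during fermentation, had -0.066 and 0.027 (mean -0.020 ± 0.066, adjusted p = 0.942). ADH2 (YMR303C), the glucose-repressed isozyme that oxidises ethanol, had -0.054 and -0.050 (mean -0.052 ± 0.0029, adjusted p = 0.831). ADH3 (YMR083W), the mitochondrial isozyme, had -0.059 and 0.017 (mean -0.021 ± 0.054, adjusted p = 0.940). These last 3 lay within 0.1 of 0 in each replicate. ADH4 (YGL256W) had a value in replicate 1 alone, 0.53 after turning, with nothing in replicate 2 to set against it.

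Of the 4 genes of acetate and acetyl-CoA, 2 were measured. ALD6 (YPL061W), the cytosolic aldehyde dehydrogenase that makes acetate and NADPH, had 0.16 and -0.0075 (mean 0.074 ± 0.12, adjusted p = 0.772). ACS2 (YLR153C), the acetyl-CoA synthetase used on glucose, had -0.27 and -0.0026 (mean -0.13 ± 0.19, adjusted p = 0.628). In both genes the value of replicate 2 was close to 0, so the means came almost wholly from replicate 1. ALD4 (YOR374W), a mitochondrial aldehyde dehydrogenase, and ACS1 (YAL054C), the glucose-repressed acetyl-CoA synthetase, were blank in both columns. So were FBP1 (YLR377C), fructose-1,6-bisphosphatase, and PCK1 (YKR097W), phosphoenolpyruvate carboxykinase, the 2 genes of gluconeogenesis. No source used here gives the rule that left ORFs blank, and a blank was not read as absence of RNA.

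The 4 pentose phosphate genes were all measured, with a median of 0.029 and means between -0.074 and 0.093. ZWF1 (YNL241C), glucose-6-phosphate dehydrogenase, which commits glucose to the pathway, had 0.32 and -0.22 (mean 0.053 ± 0.38, adjusted p = 0.903). GND1 (YHR183W), the 6-phosphogluconate dehydrogenase that follows in the oxidative branch, had the sides the other way round, -0.25 and 0.099 (mean -0.074 ± 0.24, adjusted p = 0.822). Neither ZWF1 nor GND1 thus kept its side. In the non-oxidative branch, TAL1 (YLR354C), transaldolase, was positive in both, at 0.024 and 0.16 (mean 0.093 ± 0.097, adjusted p = 0.706). TKL1 (YPR074C), transketolase, had 0.030 and -0.020 (mean 0.0051 ± 0.036, adjusted p = 0.984).

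Isozyme genes were then set against each other within each replicate, as a difference of turned log2 ratios, which a shift common to all ORFs of a column cannot change. This was possible for 12 of 15 pairs, and the differences were not tested. TDH1 minus TDH3 was -1.22 in replicate 1 and -0.62 in replicate 2 (mean -0.92 ± 0.43, SD, n = 2), and TDH1 minus TDH2 was -1.05 and -0.57 (-0.81 ± 0.34). HXK1 minus HXK2 was -0.54 and -0.43 (-0.49 ± 0.078). These 3 pairs kept their side in both replicates, as did TDH2 minus TDH3 at a smaller size (-0.18 and -0.044). GLK1 minus HXK2, of the same hexokinase step, changed side, with 0.28 and -0.24. ADH5 minus ADH1 was -0.21 and -0.27 (-0.24 ± 0.042), and ENO1 minus ENO2 was 0.18 and 0.25 (0.21 ± 0.055). For ENO1 and ENO2 the enolase of growth on glucose was the more negative. PDC5 minus PDC1 was positive in both, at 0.028 and 0.12, so that the minor isozyme had the less negative mean. ADH2 minus ADH1 changed side, with 0.012 and -0.077. The minor or glucose-repressed isozymes thus did not lie to one side of their partners throughout. The differences between PDC6 and PDC1, 0.011 and 0.031, and between ADH3 and ADH1, 0.0077 and -0.0095, were close to 0. Since no source used here gives the probe design, a small difference in any of these pairs cannot be told apart from signal shared between isozymes. PFK1 minus PFK2, the subunits of 1 enzyme, was -0.84 and 0.57 and so changed side.

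**Figure D3:**
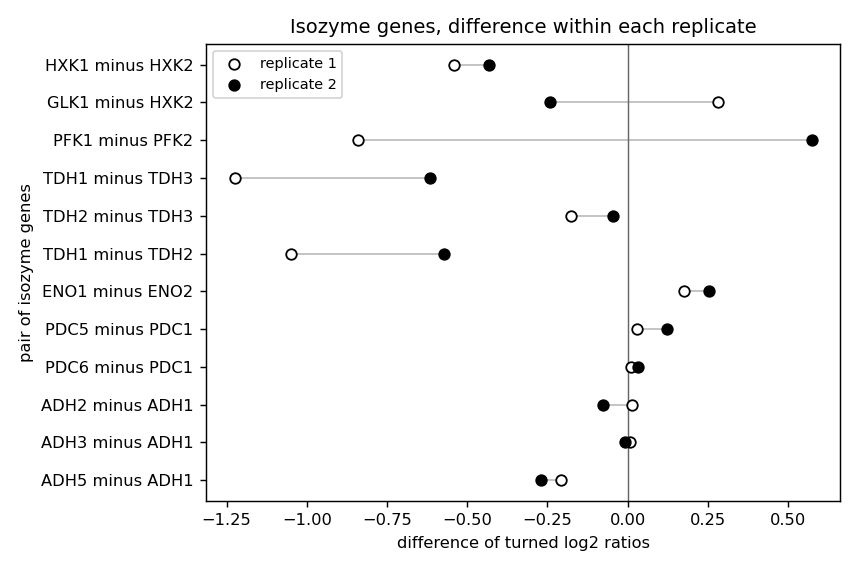
Difference of turned log2 ratios (horizontal axis) between 2 isozyme or subunit genes, for the 12 pairs measured, with replicate 1 as an open circle and replicate 2 as a filled circle. Both TDH1 pairs and HXK1 minus HXK2 lie on the negative side in both replicates, and PFK1 minus PFK2 spans 0.

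A list of 54 other genes of sugar metabolism, its transporters and its regulators was described beside these enzymes. Of the 54, 29 had values in both columns, 15 with a positive and 14 with a negative mean, and 0 had an adjusted p under 0.05 (limma, lowest 0.366), while 2 (6.90%) were past an unadjusted p of 0.05, against 13.4% of all ORFs. Of the 29, 15 (51.7%) kept their side, against 64.1% of all ORFs, and the median was 0.01, the same as that of all ORFs. Those with the greatest positive means included further pentose phosphate enzymes. RPE1, ribulose-phosphate epimerase, had 0.32 in replicate 1 and 0.60 in replicate 2 (mean 0.46 ± 0.20, adjusted p = 0.366). SOL3, a 6-phosphogluconolactonase, had 0.14 and 0.57 (mean 0.36 ± 0.31, adjusted p = 0.398). SIP4, an activator of gluconeogenic genes, had 0.27 and 0.63 (mean 0.45 ± 0.26, adjusted p = 0.366), and EMI2, a paralogue of GLK1, had 0.13 and 0.32 (mean 0.22 ± 0.13, adjusted p = 0.430). All 4 were positive in both replicates, and all 4 had the larger value in replicate 2.

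On the negative side, TKL2, a minor transketolase, had -0.56 and -0.14 (mean -0.35 ± 0.29, adjusted p = 0.398). HXT5, a hexose transporter of slow growth, had -0.17 and -0.27 (mean -0.22 ± 0.068, adjusted p = 0.415). MIG1, a repressor that mediates glucose repression, had -0.10 and -0.30 (mean -0.20 ± 0.14, adjusted p = 0.470). MIG2, another repressor of the list, lay on the other side, with 0.33 and 0.093 (mean 0.21 ± 0.17, adjusted p = 0.461). ALD5, a mitochondrial aldehyde dehydrogenase, had -0.25 and -0.14 (mean -0.19 ± 0.073, adjusted p = 0.446). The other pentose phosphate genes of the list measured in both columns lay nearer to 0, RKI1, ribose-phosphate isomerase, with 0.099 and 0.14 and GND2, a minor 6-phosphogluconate dehydrogenase, with 0.0087 and -0.074. The pentose phosphate genes of the list thus had no common side. GCR1, GCR2 and RAP1, the activators of glycolytic genes, were blank in both columns, and TYE7, another such activator, had 0.095 and -0.37 (mean -0.14 ± 0.33, adjusted p = 0.707).

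**Figure D4:**
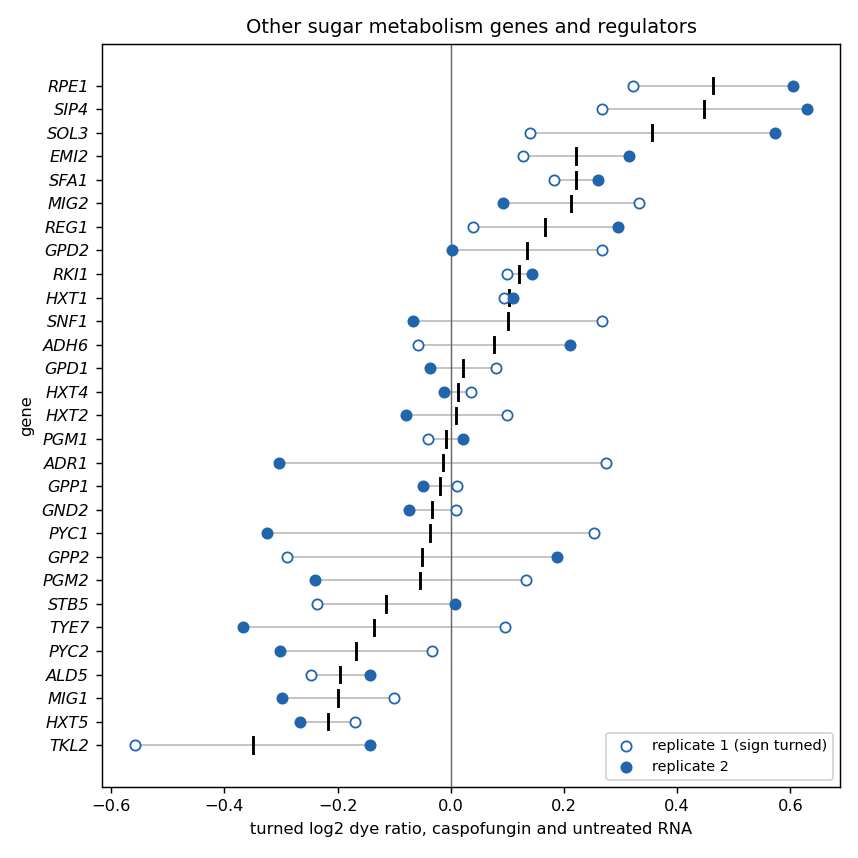
Turned log2 dye ratio (horizontal axis) of the 29 listed transporter, regulator and further enzyme genes with a value in both replicates, ordered by their mean (bar), with replicate 1 as an open circle and replicate 2 as a filled circle. RPE1, SIP4 and SOL3 are positive in both replicates at the top, TKL2 is negative in both at the bottom, and many genes in between have points on both sides of 0.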

How the data were processed

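The deposited values are log2 dye ratios, 1 for each ORF and column. They were read as log2 because 2 raised to each deposited value had no more than 4 decimals in 100% of the values. What the authors did before (background, normalization, centring, averaging of spots and the rule for blanks) is named by no source used here. Without intensities the signal over background is unknown, and precision is limited by the number of arrays. Replicate 1 had values for 3705 ORFs and replicate 2 for 3166, with column medians of -0.073 and -0.044 as deposited. The 2 control entries were left out.

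Replicate 1 was multiplied by -1, and the 3117 ORFs measured in both columns entered a fit of the mean ratio. It used limma 3.58.1 in R 4.3.3 (moderated test of a mean of 0, both sides, Benjamini-Hochberg over all ORFs, threshold 0.05). The fit was also run on simulated columns with normal noise drawn from its own prior. These had no column offset or dye effect, so that run did not test for either. Every member with a value was named. Of the 54 listed genes, up to 4 a side with the greatest mean and 1 sign in both columns were named, with GCR1, GCR2, TYE7 and RAP1. RKI1, GND2 and MIG2 were named outside this rule. Alternatives were another turning, centring, prior, statistic, minimum fold and filter, and each replicate left out. The members and lists were chosen with earlier results of these data known. Symbols came from the RefSeq table of assembly R64 (all 35 members matched). Promoter and protein sequences were not used here.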

Additional observations from a re-analysis of the deposited data

How the results depend on the processing

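The number of called ORFs was 0 in the reported fit, which turned replicate 1 and did not centre the columns. It was also 0 with the robust prior, the plain statistic, a minimum fold of 1.2, ORFs measured in at least 1 column and with replicate 1 left unturned. The minimum fold could not add calls, since it is stricter than the test against 0. The plain statistic, with only 2 columns, had little room to call any ORF. Neither is therefore a check on the count of 0. Centring the columns on their medians gave 43 calls, and 115 when that median was taken over the ORFs measured in both columns, a setting chosen after seeing the data. The estimated prior had 2.64 degrees of freedom in the reported fit, and 10.6 and 17.1 with these centrings. In each centring 1 of the 29 genes was called, TDH1. The first centring changed the sign of PGI1 (-0.0031) and TKL1 (-0.0092), both near 0, and moved the pentose phosphate median to 0.015. The count of genes over 1.5-fold, 1 as reported, was 0 at 2-fold and 0 with replicate 1 unturned. Without TDH1 (also chosen after seeing the data) it was 0 by construction, since TDH1 was the only gene counted. Over the single replicates, where size alone was counted and no shared sign could be required, the count ran from 0 to 3. The share of all ORFs is not given for these alternative counts or for the sign changes below. Neither is therefore read as a trait of the group.

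With replicate 1 unturned, the median of the 29 was 0.017, and role medians were 0.15 for hexose phosphorylation, -0.018 for upper glycolysis, 0.060 for lower glycolysis, 0.0020 for pyruvate to ethanol and 0.025 for acetate and acetyl-CoA. Isozyme differences were 0.71 for PFK1 minus PFK2, -0.26 for GLK1 minus HXK2, 0.055 for HXK1 minus HXK2, 0.30 for TDH1 minus TDH3, 0.066 for TDH2 minus TDH3, 0.24 for TDH1 minus TDH2, 0.039 for ENO1 minus ENO2 and -0.030 for ADH5 minus ADH1. Means changed sign for 18 genes: HXK1 (0.21), GLK1 (-0.11), PGI1 (-0.24), PFK2 (-0.58), FBA1 (0.042), TPI1 (-0.018), TDH1 (0.41), TDH2 (0.17), TDH3 (0.10), ADH1 (0.047), ADH2 (0.0020), ADH3 (0.038), ADH5 (0.017), ALD6 (-0.082), ACS2 (0.13), ZWF1 (-0.27), GND1 (0.17) and TKL1 (-0.025).

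When each replicate was left out, 1 column remained and there was no test. The values below are therefore those of the single replicates. The genes that spanned 0 are the 16 already counted with opposite signs, not a separate result. Means spanned 0 for HXK2 (-0.050 to 0.25), PGI1 (-0.22 to 0.25), PFK1 (-0.10 to 0.15), PFK2 (-0.43 to 0.74), TDH2 (-0.32 to 0.013), TDH3 (-0.15 to 0.058), ENO1 (-0.11 to 0.027), PDC1 (-0.39 to 0.040), PDC5 (-0.26 to 0.069), PDC6 (-0.36 to 0.051), ADH1 (-0.066 to 0.027), ADH3 (-0.059 to 0.017), ALD6 (-0.0075 to 0.16), ZWF1 (-0.22 to 0.32), GND1 (-0.25 to 0.099) and TKL1 (-0.020 to 0.030). Role medians were -0.050 to 0.0069 for hexose phosphorylation, -0.075 to 0.14 for upper glycolysis, -0.24 to -0.054 for pyruvate to ethanol, and 0.027 to 0.039 for the pentose phosphate genes. The cause of these differences between the replicates was not tested.

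The test of the ratios against 0 is itself paired by culture, since each ratio sets the treated part of a culture against its untreated part. No paired analysis was possible beyond that, because blocking on the replicate would leave no degrees of freedom. The alternatives that leave out isozymes with near-identical proteins were not run, since no protein sequences were used.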
